A study of Mus musculus with 6 samples.

Results

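Complement was read in livers of mice as 31 genes for its components, regulators and receptors, found by symbol among the 25369 genes of 6 single-cell libraries. All 31 members were found, 30 of them in each library and Cfd in 5. The mice were wild-type males that had undergone pIVCL at 8 to 10 weeks of age, an operation that narrows the inferior vena cava with a ligature and so congests the liver. After 2 weeks an osmotic pump delivered CWHM-12, an inhibitor of every integrin with the αV subunit, at 100 mg/kg/day, or its vehicle DMSO, and the livers were taken 4 weeks later. Each group had 3 libraries, called DMSO 1 to 3 and CWHM-12 1 to 3. The labels place DMSO 1, DMSO 2 and CWHM-12 1 in batch 2024.6 and DMSO 3, CWHM-12 2 and CWHM-12 3 in batch 2024.12. Every library came from an operated mouse, so no comparison here shows what the ligation does. The strain is not given in the sources used here, and no mouse identifiers are printed, so p-values measure the spread between libraries, which may be technical.

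Complement is a cascade of plasma proteins that tags and lyses targets. Its classical route starts when C1q, with the proteases C1r and C1s, binds antibody or damaged surfaces, and its lectin route when mannose-binding lectins, ficolins or collectins bring MASP proteases to sugars; both cleave C4 and C2. The alternative route runs on C3 with factors B and D and is held together by properdin. All routes cleave C3 and then C5, whose fragments call in myeloid cells through their receptors, and end in the pore built from C5b to C9. The liver is the main source of the plasma proteins, and its macrophages and sinusoidal cells make part of them.

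The libraries held between 28220477 and 48100436 molecules (UMIs), and 37992 of 60000 barcodes were kept as cells, from 3127 in DMSO 2 to 8348 in CWHM-12 2. Clusters were formed without any complement gene and named from marker lists that hold none, which gave 8316 hepatocytes, 5891 Kupffer cells (the resident macrophages), 2350 stellate cells (the pericytes of the sinusoids) and 10777 sinusoidal endothelial cells (LSEC). A class name means cells that resemble that type, and each of these 4 classes had every marker of its own list above 0. Hepatocytes made up 3.2% to 45.0% of a library, a share that the preparation can set. Levels are in CPM, the share of a gene in all UMIs of a class in a library, scaled to a total of 1000000. Since free RNA enters wells with the cells, a level is also set beside the level that transcripts of another class would bring: the gene's level in the source class times the share at which 4 to 8 of that class's own abundant transcripts appear. No pair of libraries shared more than 5 barcodes.

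Each of the 4 classes carried a different part of the cascade. By mean CPM, 13 members were highest in hepatocytes, 9 in Kupffer cells, 7 in stellate cells and 2 in LSEC, counting Cfb and Cfd, which stayed at or below 0.870 CPM in every class. Between classes a member was called with an adjusted p of at most 0.05 (edgeR, the library as a block) and a difference of at least 1 on the log2 scale, and 29 members had enough counts. Of these, 26 differed between hepatocytes and Kupffer cells, where 51.9% of all genes did. The counts were 19 for hepatocytes and stellate cells (53.4% of all genes) and 21 for hepatocytes and LSEC (54.8%). Kupffer cells differed in 15 members from stellate cells (39.5% of all genes) and in 15 from LSEC (35.2%), and stellate cells in 15 from LSEC (23.4%).

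**Figure D1:**
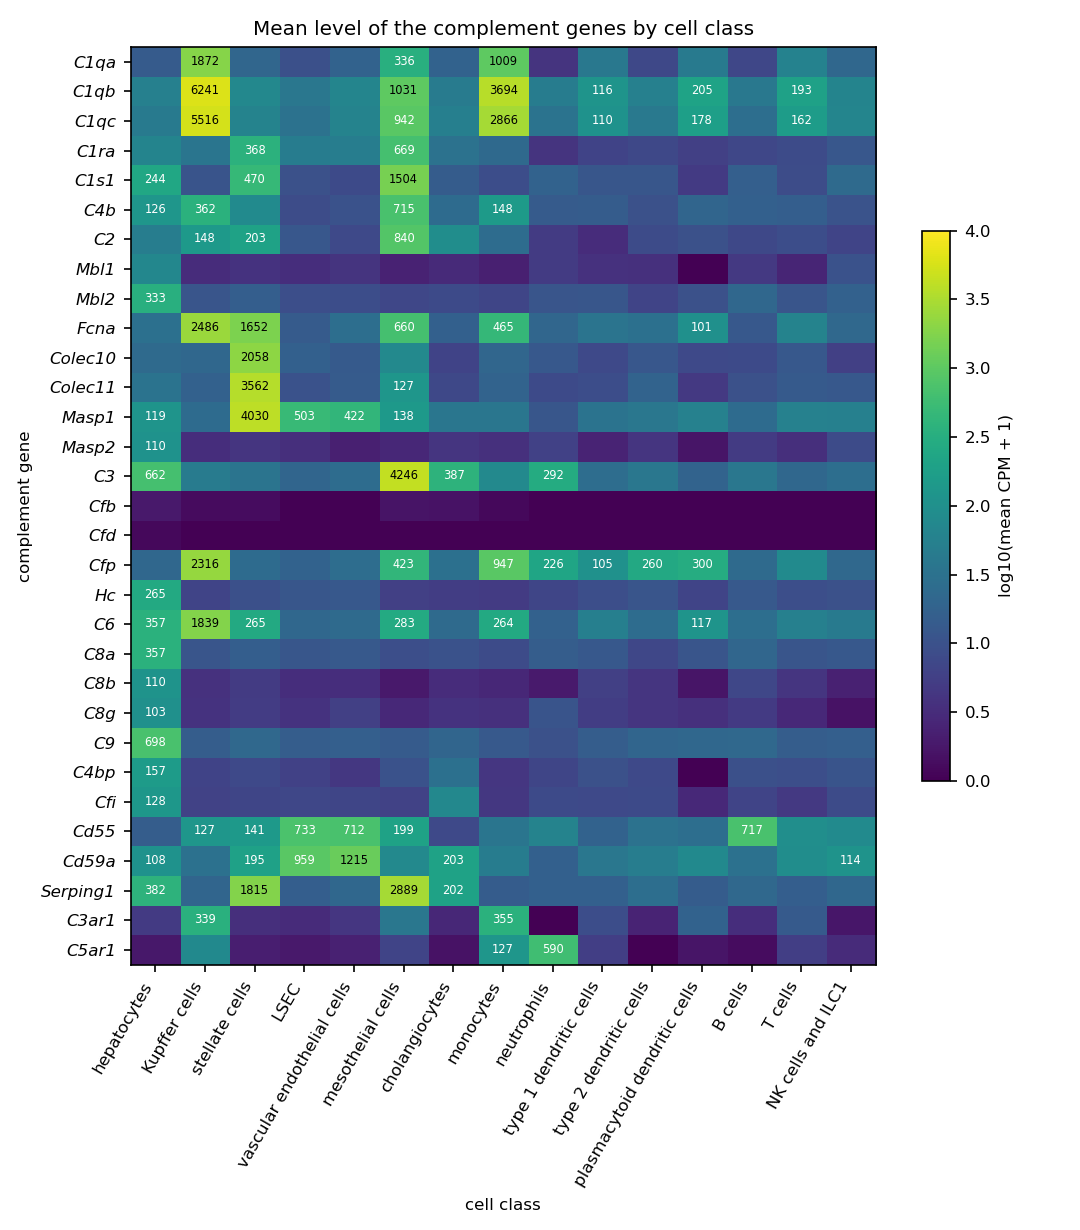
Mean CPM of the 31 complement genes (rows, ordered by role) in 15 cell classes (columns), on a log10(mean CPM + 1) colour scale, with means of at least 100 CPM printed. C1q sits with Kupffer cells and monocytes, the collectins and Masp1 with stellate cells, the terminal components C8 and C9 with hepatocytes, and C3 is higher in mesothelial cells (4246 CPM) than in hepatocytes (662 CPM).

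The 3 chains of C1q were transcripts of macrophages. In Kupffer cells the lowest, median and highest of the 6 libraries were 4867, 6466 and 6872 CPM for C1qb and 3754, 5830.3 and 6077 CPM for C1qc. C1qa had 617, 2040.2 and 2358 CPM, the lowest being DMSO 2. All libraries of Kupffer cells lay above all libraries of the other 3 classes for each chain, and against LSEC the log2 difference was 7.66, SE 0.26 for C1qb. In hepatocytes and LSEC C1qb was close to the level that Kupffer transcripts would bring. Hepatocytes had 53.4 CPM against 49.4 CPM from Kupffer transcripts, and LSEC 37.5 CPM against 31.5 CPM. Monocytes had 3694 ± 831 CPM of C1qb (SD, n = 6), where Kupffer transcripts alone would bring 1739 CPM. All 6 libraries of monocytes lay above that value.

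The proteases that C1q activates came from other cells. C1ra and C1s1, the subunits with serine protease activity, had 368 ± 78.5 and 469.6 ± 70.3 CPM in stellate cells (SD, n = 6). C1ra was higher there than in hepatocytes, at 62.4 ± 20.3 CPM (hepatocytes over stellate cells, log2 -2.40, SE 0.18). C1s1 had 244 ± 152 CPM in hepatocytes, with DMSO 2 at 525 CPM and DMSO 3 at 99.6 CPM, and it was not called because its difference was under 1 (hepatocytes over stellate cells, log2 -0.95, edgeR adjusted p = 0.000417). C4b, which gives the tag C4b and a part of the C3 convertase, was highest in Kupffer cells with 128, 386 and 472 CPM as lowest, median and highest library. Hepatocytes had 126 ± 56.8 CPM of it, above the 2.90 CPM that Kupffer transcripts would bring. C2, the protease partner of C4b, had 203 ± 70.7 CPM in stellate cells and 148 ± 37.9 CPM in Kupffer cells, which overlapped, and 48.4 ± 13.4 CPM in hepatocytes. Serping1, the C1 inhibitor, had 822, 1987 and 2227 CPM as lowest, median and highest in stellate cells, the lowest again being DMSO 2, and 222, 354 and 596 CPM in hepatocytes. In Kupffer cells and LSEC it stood at 19.1 and 14.5 CPM. Several members have near copies in the genome, and reads that fit both can be split: over all classes C4a had 585 UMIs beside 20752 of C4b, C1rb 46 beside 11360 of C1ra, and C1s2 23 beside 12875 of C1s1. Of the exon bases of C1s1, 18.4% lie opposite Gm16567, an antisense gene.

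The recognition molecules of the lectin route were split between hepatocytes, stellate cells and Kupffer cells. Mbl1 and Mbl2, the mannose-binding lectins, were hepatocyte transcripts with 70.2 ± 19.1 and 333 ± 111 CPM, and no other of the 4 classes exceeded 14.6 CPM of Mbl2. Colec10 and Colec11, the liver and kidney collectins that join as a heteromer, were stellate cell transcripts. Colec11 had 2638, 3584 and 4288 CPM as lowest, median and highest library there and Colec10 1687, 2024 and 2523 CPM. In hepatocytes they had 32.1 and 23.0 CPM, where stellate transcripts would bring 32.1 and 22.1 CPM. Fcna, ficolin A, was shared: 1273, 2380.2 and 3907 CPM in Kupffer cells and 647, 1546 and 2618 CPM in stellate cells. Within each library Kupffer cells were higher, while the ranges overlapped and the log2 difference of 0.73 was below the 1 required for a call (edgeR adjusted p = 0.00223). Kupffer transcripts would bring only 21.2 CPM of Fcna to stellate cells, whose own level was far above this in all 6 libraries. C1qb in the same stellate cells had 72.7 CPM against 54.8 CPM from Kupffer transcripts. Hepatocytes and LSEC had 29.1 and 12.9 CPM of Fcna.

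Of the proteases that these lectins carry, Masp1 was highest in stellate cells with 4030.0 ± 608 CPM, followed by LSEC with 503 ± 53.3 CPM and hepatocytes with 119 ± 79.4 CPM (SD, n = 6). LSEC lay above hepatocytes in every library (hepatocytes over LSEC, log2 -1.92, SE 0.24), and stellate transcripts would bring 14.8 CPM to LSEC. The files do not separate the proteins that Masp1 encodes by splicing. Masp2, the protease that cleaves C4 and C2, was instead a hepatocyte transcript with 109.9 ± 58.9 CPM, against 3.17 CPM in stellate cells. Its exons share 54.9% of their bases with Tardbp on the opposite strand in the GENCODE vM21 annotation, so its counts are uncertain if strand was not used.

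**Figure D2:**
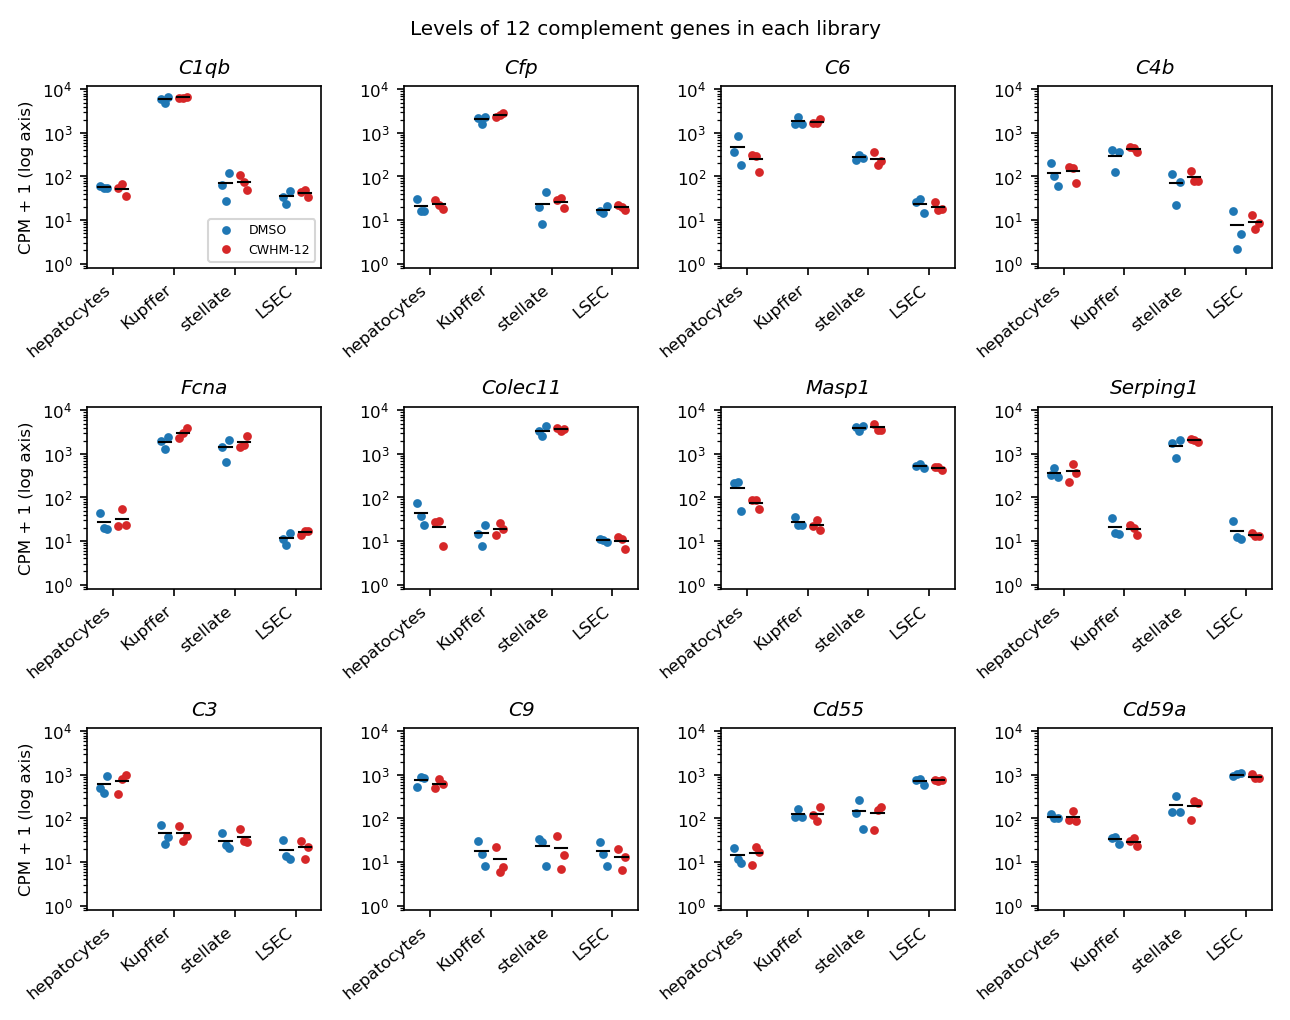
CPM + 1 (log axis) of 12 complement genes in hepatocytes, Kupffer cells, stellate cells and LSEC; each point is 1 library, blue for DMSO and red for CWHM-12, and the black line is the mean of the group's 3 libraries. The classes are far apart while the 2 groups overlap in most panels: C9 has 698 CPM in hepatocytes and 13.9 CPM in Kupffer cells.

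C3, on which all routes converge, had 369, 649 and 974 CPM as lowest, median and highest library in hepatocytes and 44.7 ± 19.0 CPM in Kupffer cells, where hepatocyte transcripts would bring 29.5 CPM. Cfb and Cfd, the factors of the alternative route, were close to 0 in all classes, with 12 UMIs of Cfb in hepatocytes in all. In the vM21 annotation 79.5% of the exon bases of Cfb and 42.8% of those of C2 also belong to a readthrough gene on the same strand, Gm20547. Reads of shared exons can be dropped or split in counting, so the levels of Cfb and C2 are uncertain, and a low Cfb is not read as absence. Cfp, properdin, the stabilizer of the alternative convertase, was a Kupffer cell transcript with 1601, 2342 and 2846 CPM and at most 24.2 CPM in the other 3 classes.

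Transcripts of the terminal pore were highest in hepatocytes, except C6. Hc, which encodes C5, had 163, 232 and 528 CPM as lowest, median and highest, C8a 227, 358 and 579 CPM, C8b 57.8, 111 and 154 CPM, C8g 61.1, 102 and 158 CPM and C9 496, 704 and 903 CPM. For each of these 5 genes all hepatocyte libraries lay above all libraries of Kupffer cells, stellate cells and LSEC, and in Kupffer cells C9 stood at 13.9 CPM against 32.9 CPM from hepatocyte transcripts. C6 was highest in Kupffer cells instead, at 1584, 1695 and 2349 CPM, against 127, 305 and 844 CPM in hepatocytes and 184, 257 and 359.8 CPM in stellate cells. The difference between hepatocytes and Kupffer cells was -2.46, SE 0.23 on the log2 scale. Kupffer transcripts would bring 14.5 CPM of C6 to hepatocytes and 15.3 CPM to stellate cells, less than either class had. The part of transcripts from other classes was not tested.

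The membrane-bound regulators were highest in endothelial cells. Cd55, decay-accelerating factor, had 592, 758 and 788 CPM as lowest, median and highest in LSEC and 141 ± 78.9 CPM in stellate cells. The 11 LSEC markers summed to 2142 to 9845 CPM in stellate cells and to 33210 to 38428 CPM in LSEC. The part of LSEC transcripts in the Cd55 and Cd59a of stellate cells was not tested. B cells and vascular endothelial cells were close to LSEC, with 717 ± 134 and 712 ± 103 CPM. Cd59a, which blocks assembly of the pore, had 834, 979.6 and 1095 CPM in LSEC, 1215 ± 289 CPM in vascular endothelial cells and 108 ± 23.8 CPM in hepatocytes. Hepatocytes had 14.0 CPM of Cd55. The near copies Cd55b and Cd59b had 98 and 213 UMIs over all classes, beside 52456 of Cd55 and 59954 of Cd59a. The soluble regulators C4bp, a cofactor that binds C4b, and Cfi, the protease factor I, were hepatocyte transcripts with 157 ± 87.1 and 128 ± 72.5 CPM, and cholangiocytes had 47.8, 68.8 and 100.3 CPM of Cfi as lowest, median and highest, where hepatocyte transcripts would bring 30.9 CPM. The anaphylatoxin receptors were highest in myeloid cells. C3ar1 had 339 ± 47.9 CPM in Kupffer cells and 355 ± 114 CPM in monocytes, which overlapped. C5ar1 had 78.1 ± 7.33 CPM in Kupffer cells, 127 ± 48.7 CPM in monocytes and 590.5 ± 206 CPM in the 4 libraries with enough neutrophils.

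Outside the 4 classes, mesothelial cells, the covering of the liver surface, had the highest mean of 6 members over all classes: C3, C1s1, C1ra, C2, C4b and Serping1. They reached 20 cells in 5 libraries. There C3 had 2359, 4016 and 6436 CPM as lowest, median and highest, all above the highest hepatocyte library at 974 CPM. C1s1 had 1042, 1361 and 2089 CPM and Serping1 1888, 2931 and 3916 CPM. Hepatocyte transcripts would bring 27.8 CPM of C3 to these cells. C1qb in the same cells had 26.7 CPM in DMSO 1, above the level that Kupffer transcripts would bring, 298 against 470.2 CPM in DMSO 2, 972 against 912 CPM in DMSO 3, 2314 against 2428 CPM in CWHM-12 2 and 1543 against 1662 CPM in CWHM-12 3, each time measured against that level. The measured level was above the other in 2 of 5 libraries. Cholangiocytes had 387 ± 94.2 CPM of C3, above the 171 CPM that hepatocyte transcripts would bring. No test between classes was run for mesothelial cells or cholangiocytes.

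One library stood apart, most of all for C1qa and C4b. In Kupffer cells C1qa had 2138, 617 and 2284 CPM in DMSO 1 to 3 and 2358, 1942 and 1894 CPM in CWHM-12 1 to 3. DMSO 2 was below the other 5 libraries, which overlapped between groups. C1qb and C1qc were lowest in DMSO 2 as well, at 4867 and 3754 CPM. The other libraries had 6002 to 6872 CPM of C1qb and 5593 to 6077 CPM of C1qc. The ratio of C1qa to C1qb was 0.127 in DMSO 2 and between 0.276 and 0.366 in the others, and the ratio of C1qc to C1qb 0.771 against 0.861 to 0.947. Monocytes repeated this, with 303 CPM of C1qa in DMSO 2 and between 955 and 1679 CPM in the others, while their C1qb in DMSO 2, at 3191 CPM, lay within the range of the others. The same was seen within the Kupffer clusters with at least 20 cells in every library, with a ratio of 0.132 in cluster 0, 0.110 in cluster 5 and 0.0998 in cluster 26, against 0.223 to 0.375 in the other libraries of these clusters. C4b in DMSO 2 was also the lowest of 6 in Kupffer cells (128 CPM against 359 to 472) and in stellate cells (21.0 CPM). In DMSO 2 stellate cells C1ra, C2, Fcna and Serping1 were the lowest of 6 too, and C6 in Kupffer cells and hepatocytes the highest. DMSO 2 had the fewest kept cells of the 6 libraries; its part in these values was not tested. The log2 difference of C1qa between the groups in Kupffer cells was 0.27 with all libraries and -0.076 without DMSO 2, and that of C4b 0.47 and 0.17.

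**Figure D3:**
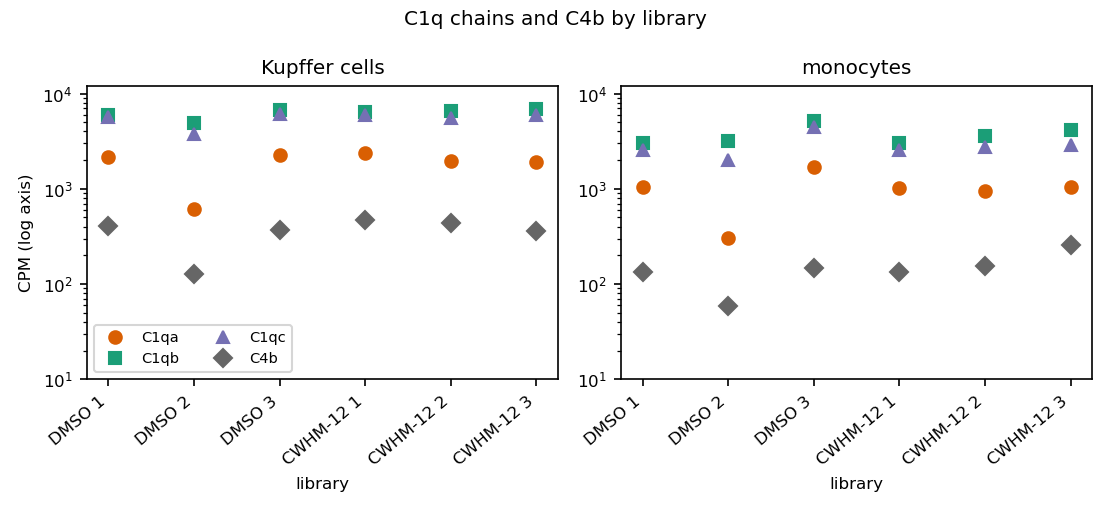
CPM (log axis) of C1qa, C1qb, C1qc and C4b in Kupffer cells (left) and monocytes (right) in each of the 6 libraries; every symbol is 1 library. C1qa and C4b dip in DMSO 2, to 617 and 128 CPM in Kupffer cells. C1qb is also lowest there in Kupffer cells, at 4867 CPM against 6002 to 6872 CPM in the other libraries.

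Within hepatocytes Hc, C8a, C8b, C8g and C9 were higher in cells of periportal type, and C6, the other component of the pore among the members, was not. Hepatocytes near the portal vein and near the central vein express different genes, and cells were ranked in each library by 9 periportal minus 9 pericentral marker genes, none of them a member. The top and bottom of 3 equal parts, from 77 cells in DMSO 2 to 909 in CWHM-12 1, are called the periportal and pericentral range; they are ranges of a score, and 4.50% to 6.20% of a library's hepatocytes lay within 0.05 of a cut. Of 27 members with enough counts, 14 were higher in the periportal range and 0 in the pericentral range, whereas 8.43% of all genes were higher and 6.41% lower (edgeR with the library as a block, adjusted p at most 0.05). The median log2 difference was 0.59 over these members and 0.01 over all genes.

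C9, the subunit that polymerizes into the wall of the pore, differed most. In the pericentral range it had 254, 332 and 405 CPM in DMSO 1 to 3 and 291, 280.1 and 245 CPM in CWHM-12 1 to 3. In the periportal range it had 812, 1239.6 and 1112 CPM and 692, 1089 and 853 CPM. The ranges did not overlap, and the log2 difference was 1.82 (SE 0.14, adjusted p = 2.02e-08). C8b had 57.0, 58.1 and 68.2 CPM and 34.2, 51.4 and 59.6 CPM in the pericentral range and 104, 228 and 152 CPM and 71.6, 239 and 139 CPM in the periportal range, higher in 6 of 6 libraries (log2 1.40, SE 0.16). Hc rose from 151 ± 49.3 to 333 ± 135 CPM (SD, n = 6; log2 1.21, SE 0.13), C8a from 218 ± 68.1 to 468 ± 147 CPM (log2 1.26, SE 0.14) and C8g less (log2 0.89, SE 0.15). Upstream of the pore, C3 rose from 435 ± 212 to 839.5 ± 350.4 CPM (log2 1.09, SE 0.15). Its inactivator Cfi rose from 64.2 ± 22.2 to 182 ± 111 CPM (log2 1.34, SE 0.19). All 6 libraries were higher in the periportal range for C3, Cfi, Hc, C8a and C8g. The values of DMSO 2 and CWHM-12 2 may rest on few cells. Their periportal ranges summed to 364629 and 396742 UMIs and their pericentral ranges to 120562 and 174963. In these libraries 3 and 7 barcodes of very high counts held 228189 and 268145 hepatocyte UMIs. Their split between the ranges was not recorded.

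Smaller periportal differences passed for genes of the classical and lectin routes: C2 (log2 0.85), Serping1 (0.78), C4b (0.65), Masp1 (0.60), C1s1 (0.59), C1ra (0.57) and Masp2 (0.48). C1ra, Masp1 and Masp2 were higher in 5 of 6 libraries and the other 4 in all 6. C6 did not pass, with 393 ± 259 and 341 ± 231 CPM (log2 -0.032, SE 0.14) and 2 of 6 libraries higher in the periportal range. Mbl1 (log2 -0.019, SE 0.15), Mbl2 (log2 0.40, SE 0.18) and C4bp (log2 0.34, SE 0.15) did not pass either. Of the 14 calls, C1s1, C2, C3, Hc, C8a, C8b, C8g, C9, Cfi, Masp1 and Serping1 passed in each of 10 alternatives, the removal of each library in turn among them. C4b passed in 8 of 10, C1ra in 5 and Masp2 in 4, all with a positive sign in every alternative. Without CWHM-12 3, 11 members passed, and the share of all genes in that fit was not recorded. Of the members that did not pass with all libraries, Colec11 passed in 4 of 10, and Mbl2 and C4bp in 1 each, all of them as higher in the periportal range. C6 passed in 1, without the hepatocyte cluster of very high UMI counts, as lower in the periportal range (log2 -0.46, edgeR adjusted p = 0.00460), an alternative chosen after seeing the data. Its values over the 10 alternatives ran from -0.46 to 0.10. Other properties moved with the ranges: 8 abundant hepatocyte transcripts summed to 18875 to 37985 CPM in the pericentral and 29159 to 86658 CPM in the periportal range, and median UMIs per cell were 1092 to 2119 and 1236 to 2393. Mitochondrial UMIs were 2.46% to 10.6% and 2.05% to 16.4%. Their part in the differences was not tested. Markers of other classes moved too. Cells with any UMI of the Kupffer list were 22.1% to 39.1% of a library's pericentral range and 33.9% to 51.2% of its periportal range, more in the periportal range in 6 of 6 libraries. For the LSEC list the shares were 24.5% to 41.6% and 27.3% to 51.7%, more in 6 of 6, and for the stellate list 10.4% to 21.9% and 10.1% to 36.4%, more in 5 of 6. Periportal cells had more UMIs as well, and these shares are not adjusted for it. As a share of all UMIs the lists were higher in the periportal range in 5 of 6 libraries for Kupffer markers (229 to 439.6 CPM in the pericentral and 252 to 383 CPM in the periportal range), 4 of 6 for stellate markers (63.1 to 672 CPM in the pericentral and 129 to 986 CPM in the periportal range) and 3 of 6 for LSEC markers (282 to 834 CPM in the pericentral and 266 to 702 CPM in the periportal range). C2, C4b, C1ra, C1s1, Serping1 and Masp1 had a higher mean CPM in 1 or more of those classes than in hepatocytes. The part of such transcripts in their periportal differences was not tested.

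**Figure D4:**
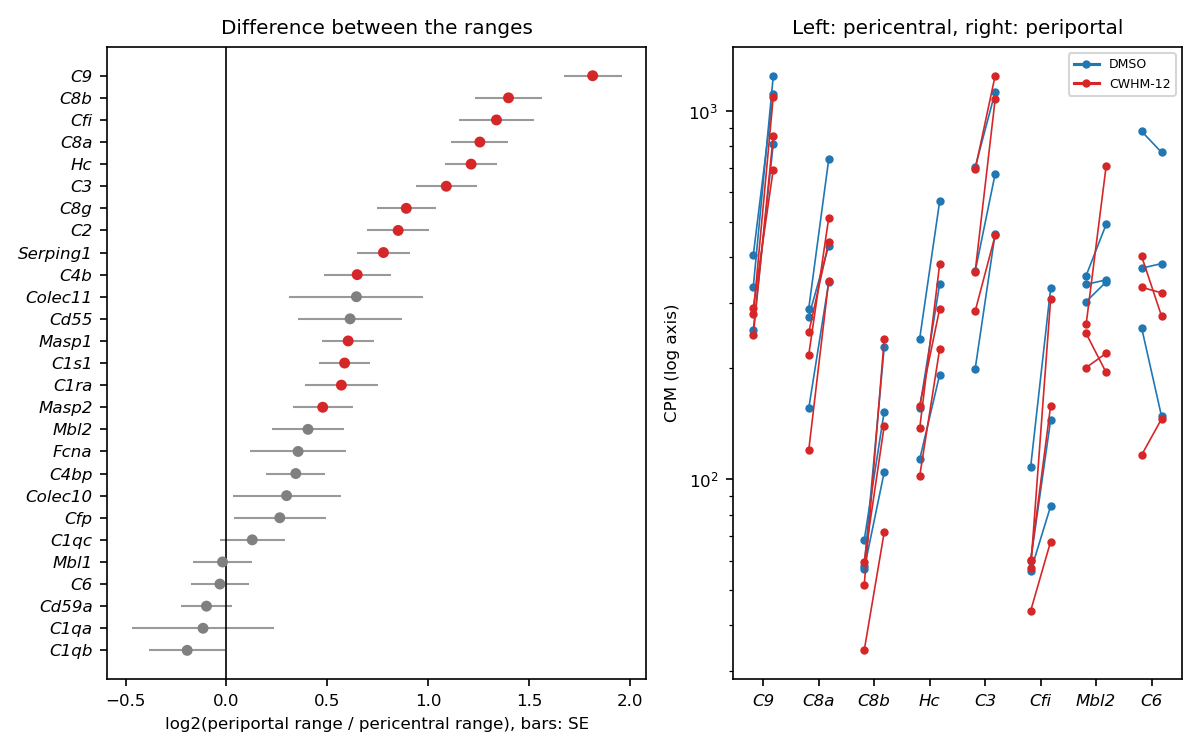
Left, log2 of CPM in the periportal over the pericentral range of hepatocytes for 27 complement genes, with bars of 1 SE and red points where the adjusted p is at most 0.05. Right, CPM (log axis) of 8 of them in each library, joined from the pericentral to the periportal range, in blue for DMSO and red for CWHM-12. C9 and C8b rise in every library, whereas C6 has lines in both directions.

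Promoters of some members that moved together along the lobule, and of C4bp, which did not pass, are shown for their sequence. RefSeq promoters (build GRCm38.p6) matched 23 of the 31 members. GTTAAT, part of the site of the hepatocyte factor HNF1, was searched on both strands (ATTAAC where the match is on the other strand) in the 250 bases before each start site. It stood in 6 of 23 members (C1ra, C4bp, C8a, C8b, Cfp and Hc) and in 7.49% of all 27025 genes, and in the 5 promoters shown it overlapped no match of the other motifs searched. C1s1, C3, C8g and Masp2 also passed along the lobule, hold no match and are not shown. C1ra passed too, holds a match and is not shown either. The matches are in capitals: the promoters are chr4:104876399-104876648 (- strand) for C8a, chr4:104766067-104766316 (+ strand) for C8b, chr2:35061413-35061662 (- strand) for Hc, chr1:130661619-130661868 (- strand) for C4bp and chr15:6445096-6445345 (+ strand) for C9, which holds none.
C8a: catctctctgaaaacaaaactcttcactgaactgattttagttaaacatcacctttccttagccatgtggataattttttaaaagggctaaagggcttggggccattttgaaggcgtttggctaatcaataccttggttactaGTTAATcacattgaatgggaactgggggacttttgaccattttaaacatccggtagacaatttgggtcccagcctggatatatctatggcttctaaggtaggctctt
C8b: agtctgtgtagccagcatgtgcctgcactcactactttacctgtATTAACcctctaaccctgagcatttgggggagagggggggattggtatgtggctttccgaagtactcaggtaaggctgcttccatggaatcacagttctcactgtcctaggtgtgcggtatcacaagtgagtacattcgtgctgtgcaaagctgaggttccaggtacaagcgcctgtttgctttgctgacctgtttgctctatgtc
Hc: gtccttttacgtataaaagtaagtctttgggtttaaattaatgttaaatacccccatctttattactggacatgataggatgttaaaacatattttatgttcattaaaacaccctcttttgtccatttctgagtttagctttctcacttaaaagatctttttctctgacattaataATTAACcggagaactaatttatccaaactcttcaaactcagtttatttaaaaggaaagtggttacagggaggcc
C4bp: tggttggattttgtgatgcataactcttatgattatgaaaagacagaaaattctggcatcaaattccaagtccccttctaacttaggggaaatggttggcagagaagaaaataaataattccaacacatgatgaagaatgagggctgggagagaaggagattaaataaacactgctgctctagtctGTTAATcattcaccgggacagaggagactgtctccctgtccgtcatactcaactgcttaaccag
C9: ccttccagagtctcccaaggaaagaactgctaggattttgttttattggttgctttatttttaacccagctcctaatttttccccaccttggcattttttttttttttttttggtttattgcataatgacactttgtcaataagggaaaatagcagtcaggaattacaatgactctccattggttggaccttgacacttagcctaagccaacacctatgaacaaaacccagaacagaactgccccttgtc
The other motifs were searched in the same way. TTNNGNAA, part of the C/EBP site, stood in 10 of 23 members, C9 among them (40.3% of all genes), TTCNNNGAA, the STAT site, in 3 (8.13%), and AGAGGAAG, part of the PU.1 site, in 1 (4.27%). A match describes letters and shows no binding. 2 patterns of the interferon response element were also searched, and stood in 2 and 0 members (3.46% and 2.68% of all genes).

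Hepatocyte clusters also differed in C6. Cluster 11 (1236 cells, a median of 8.95% mitochondrial UMIs) had 1133 CPM of C6, 691 CPM of C1s1, 538 CPM of Hc, 319 CPM of Masp1 and 232 CPM of Masp2. In cluster 13 (1144 cells, 0.630%) the same genes had 94.8, 109, 201, 35.5 and 58.7 CPM. C9 and C8b went the other way, with 374 and 54.7 CPM in cluster 11 and 951 and 119 CPM in cluster 13. Cluster 11 held 132 of 233 hepatocytes of DMSO 2, which had the highest C6, C1s1, Hc and Masp2 of the 6 libraries, and 110 of 1907 in CWHM-12 3. These are values of clusters found in the same cells, and no test was run.

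Whether integrin inhibition changes complement genes was asked in each class, with a batch term. Members were tested in 15 classes, and none passed in any of them (edgeR, adjusted p at most 0.05). In the 4 main classes 0% of all genes passed, the same share as among the members. Unadjusted p was under 0.05 for 245 genes in hepatocytes (2.38% of those tested) and 205 in Kupffer cells (1.78%). It was also under 0.05 for 171 in stellate cells (1.69%) and 277 in LSEC (2.35%). Among members this held for 1 of 28 members in hepatocytes, 1 of 28 in Kupffer cells, 0 of 22 in stellate cells and 1 of 28 in LSEC. DESeq2 and limma voom also called 0 members in each of these classes. In simulated counts for these fits, true differences of 1 on the log2 scale were called in 12.6% to 30.8% of changed genes and differences of 2 in 79.6% to 90.1%.

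In Kupffer cells the members of smallest p among those with a mean of at least 20 CPM were Fcna, C2, C5ar1 and Cfp. Fcna had 1939, 1273 and 2473 CPM in DMSO 1 to 3 and 2287, 3040.1 and 3907 CPM in CWHM-12 1 to 3, with CWHM-12 1 inside the DMSO range (log2 0.51, SE 0.22, adjusted p = 1.00). Within the batches its difference was 0.54 in batch 2024.6 and 0.50 in batch 2024.12. C2 had 145, 82.4 and 135 CPM in DMSO 1 to 3 and 155, 176 and 191 CPM in CWHM-12 1 to 3. The groups did not overlap, as they did not for 10.8% of all genes (log2 0.45, SE 0.23, adjusted p = 1.00). C5ar1 did not overlap either, with 83.0, 76.9 and 90.5 CPM in DMSO 1 to 3 and 70.9, 73.7 and 73.7 CPM in CWHM-12 1 to 3 (log2 -0.23, SE 0.13, adjusted p = 1.00). Cfp had 2050.2 ± 402 and 2581 ± 269.9 CPM (SD, n = 3 each; log2 0.25, SE 0.18, adjusted p = 1.00). Over the 28 members tested, 17 were positive with a median of 0.057, and all genes had a median of 0.011. This median turned to -0.14 with no batch term, -0.11 with the replicate block, -0.016 with limma voom, -0.083 without DMSO 2 and -0.11 without DMSO 3. Kupffer cluster 5 held 780 of 1014 cells in DMSO 1 and 72 of 1121 in CWHM-12 3, and its Fcna was 1904 CPM against 2673 CPM in cluster 0; the part of this mix was not tested.

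In stellate cells the members of smallest p, with the same minimum mean, were C3, Colec10, Serping1 and C9. Colec10 had 2523, 2291 and 2159.5 CPM in DMSO 1 to 3 and 1798, 1889 and 1687 CPM in CWHM-12 1 to 3. Every CWHM-12 library lay below every DMSO library, as was so in 1 direction or the other for 8.26% of all genes (log2 -0.38, SE 0.20, adjusted p = 1.00). Its partner Colec11 had 3432 ± 827 and 3692 ± 231 CPM (SD, n = 3 each; log2 0.031). Serping1 had 1758, 822 and 2113 CPM in DMSO 1 to 3 and 2227, 2048 and 1925 CPM in CWHM-12 1 to 3, where DMSO 2 lay far below the other 5 libraries (log2 0.32, SE 0.33, adjusted p = 1.00, and 0.072 on the log2 scale without DMSO 2). C3 had 29.4 ± 13.2 and 37.4 ± 16.1 CPM (log2 0.56, SE 0.29, adjusted p = 1.00) and C9 22.7 ± 13.9 and 19.5 ± 17.7 CPM (log2 0.34, SE 0.36, adjusted p = 1.00). For C9 the fitted difference, which has the batch term, was positive while the mean CPM was lower under CWHM-12, so its direction is not read. The 11 LSEC markers, all detected, summed in stellate cells to 3247 to 9845 CPM in DMSO and 2142 to 9124 CPM in CWHM-12. Hepatocyte transcripts alone would bring 28.4 CPM of C3 and 32.1 CPM of C9 to stellate cells. The 22 members had a median of 0.069, 0.46 and -0.12 within the batches. The median over all libraries turned to -0.033 without DMSO 2, -0.13 without CWHM-12 1 and -0.045 with the looser cell filter.

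In hepatocytes the direction of the list turned between the batches. Of 28 members, 23 were negative with a median log2 of -0.20, but the median was -0.77 in batch 2024.6 and 0.47 in batch 2024.12, while all genes had a median of 0.0065 over both. It was -0.89 without DMSO 3, -0.01 without DMSO 2 and 0.35 without CWHM-12 1. Colec10 had the smallest p, with 53.5, 46.2 and 8.98 CPM in DMSO 1 to 3 and 19.0, 6.87 and 3.69 CPM in CWHM-12 1 to 3 (log2 -1.29, SE 0.34, adjusted p = 0.999). CWHM-12 1 lay within the DMSO range. Colec11 had 73.1, 37.0 and 22.2 CPM in DMSO 1 to 3 and 26.4, 27.5 and 6.50 CPM in CWHM-12 1 to 3 (log2 -0.96, SE 0.50, adjusted p = 0.999). Both sat at the level that stellate transcripts bring to hepatocytes, and the 10 stellate markers, all detected, summed there to 203 to 928 CPM in DMSO and 97.5 to 267 CPM in CWHM-12. C4b had 121 ± 72.6 and 131 ± 52.0 CPM (log2 0.51, SE 0.42, adjusted p = 0.999). C9 had 535, 903 and 848 CPM in DMSO 1 to 3 and 496, 801 and 608 CPM in CWHM-12 1 to 3, which overlapped (log2 -0.41, SE 0.35, adjusted p = 0.999). None of the 28 members had groups that did not overlap, where 5.88% of all genes did. In DMSO 2 and CWHM-12 2, 35.1% and 36.8% of the hepatocyte UMIs came from 3 and 7 barcodes of very high counts, and leaving these out called 0 members as well.

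In LSEC the members of smallest p among those with a mean of at least 20 CPM were C1ra, Cd55, Cd59a and C1qb. The 1 of 28 members with an unadjusted p under 0.05 had a lower mean and is not among them. C1ra had 48.5, 30.6 and 44.2 CPM in DMSO 1 to 3 and 50.3, 53.9 and 53.0 CPM in CWHM-12 1 to 3. The groups did not overlap, as for 11.6% of all genes (log2 0.31, SE 0.20, adjusted p = 0.999). Cd55 had 712 ± 105 and 754 ± 14.4 CPM (log2 0.17, SE 0.17, adjusted p = 0.999), Cd59a 1018 ± 81.6 and 900.5 ± 110.5 CPM (log2 -0.15, SE 0.16, adjusted p = 0.999), and C1qb 33.7 ± 11.9 and 41.3 ± 7.95 CPM (log2 0.22, SE 0.27, adjusted p = 0.999). The differences of Cd55 and Cd59a had opposite signs in the batches, at -0.056 in batch 2024.6 and 0.39 in batch 2024.12 for Cd55. LSEC of the groups lay in different clusters: cluster 3 held 147 DMSO and 2406 CWHM-12 cells, cluster 9 1154 DMSO and 624 CWHM-12 cells and cluster 10 976 DMSO and 483 CWHM-12 cells. Cd55 had 807, 687 and 712 CPM in clusters 3, 9 and 10 and C1ra 41.9, 41.7 and 55.5 CPM, and the part of this mix was not tested. Early response genes, which handling of cells can induce, were positive in 15 of 16 in LSEC and 14 of 16 in Kupffer cells, and their part was not tested.

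In the 11 other classes no member passed either. The share of all genes that passed was 0.515% in NK cells and ILC1, all higher under CWHM-12, 0.0158% in mesothelial cells, where the single gene was lower, 0.0254% in monocytes (0.0127% higher and 0.0127% lower) and 0% in the others. Cholangiocytes, which line the bile ducts, had the largest share of members at an unadjusted p under 0.05 among classes with at least 10 members tested, 6 of 17, where 2.60% of all genes had one. Their Cfi had 86.9, 100.3 and 78.8 CPM in DMSO 1 to 3 and 58.8, 58.7 and 47.8 CPM in CWHM-12 1 to 3, with every CWHM-12 library below every DMSO library (log2 -0.63, SE 0.22, adjusted p = 0.999). The 12 hepatocyte markers summed in cholangiocytes to 8811 to 11568 CPM in DMSO and 7815 to 8666 CPM in CWHM-12, and their part in it was not tested. Groups did not overlap for 4 members there and for 10.8% of all genes. C1ra had 24.2, 24.3 and 23.2 CPM in DMSO 1 to 3 and 44.1, 33.2 and 35.1 CPM in CWHM-12 1 to 3 (log2 0.67, SE 0.28, adjusted p = 0.999). The macrophage transcripts C1qc (13.2, 16.2 and 26.4 CPM in DMSO 1 to 3 and 199.6, 37.0 and 15.9 CPM in CWHM-12 1 to 3) and Cfp (13.2, 8.09 and 12.5 CPM in DMSO 1 to 3 and 90.4, 30.6 and 15.9 CPM in CWHM-12 1 to 3) were highest in CWHM-12 1, which had 50 cholangiocytes, the fewest of the 6 libraries. The 10 Kupffer markers summed in cholangiocytes to 311 to 356 CPM in DMSO and 299 to 983 CPM in CWHM-12, and their part in these values was not tested. Of the members tested in T cells, 2 of 13 (C1qb and Fcna) did not overlap (9.53% of all genes), and in NK cells and ILC1 0 of 4 (9.84%). Unadjusted p (edgeR) was under 0.05 for 3 of 13 members in T cells (4.13% of all genes) and for 2 of 4 in NK cells and ILC1 (4.31%). Mesothelial cells had 3 DMSO and 2 CWHM-12 libraries. Both CWHM-12 libraries and DMSO 3 were of batch 2024.12, and DMSO 1 and DMSO 2 of batch 2024.6. Groups did not overlap for 9 of 17 members there, against 28.5% of all genes, a count that does not separate batch from treatment. C1qa, C1qb, C1qc, C6, Cfp, Fcna and C3ar1 were those higher under CWHM-12, and C1ra and C1s1 those lower. Of these, C3ar1 had an unadjusted p under 0.05, and C1qb had the levels given above beside those that Kupffer transcripts would bring. In type 2 dendritic cells 2 of 3 members (C1qb, lower, and Cfp, higher) did not overlap, against 11.5% of all genes. There 3 of 3 members had an unadjusted p (edgeR) under 0.05, as did 5.43% of all genes.

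Whether the response to CWHM-12 differed between classes was tested for stellate cells against LSEC, Kupffer cells against LSEC and hepatocytes against Kupffer cells. In these 3 tests 0 members passed, as did 0% of all genes (edgeR, adjusted p at most 0.05), and 7 values of members had an unadjusted p under 0.05: 2 of 25 for stellate cells against LSEC (4.96% of all genes), 2 of 29 for Kupffer cells against LSEC (5.71%) and 3 of 29 for hepatocytes against Kupffer cells (3.59%). Leaving out 1 library changed the count of calls. Without DMSO 3, the stellate response minus that of LSEC passed for Cd55 (log2 -1.71), Colec10 (-1.46) and Serping1 (1.32), where 0.853% of all genes passed, and the hepatocyte response minus that of Kupffer cells for Colec10 (-2.02), where 0.154% did. Without CWHM-12 1 the members that passed between stellate cells and LSEC were C2 (-1.64), Cd55 (1.18) and Cd59a (1.11), where 2.73% of all genes passed. Cd55 had opposite signs in these fits. Both Cd55 and Cd59a were higher in LSEC than in stellate cells, where LSEC markers varied between libraries. The part of LSEC transcripts in these differences was not tested.

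**Figure D5:**
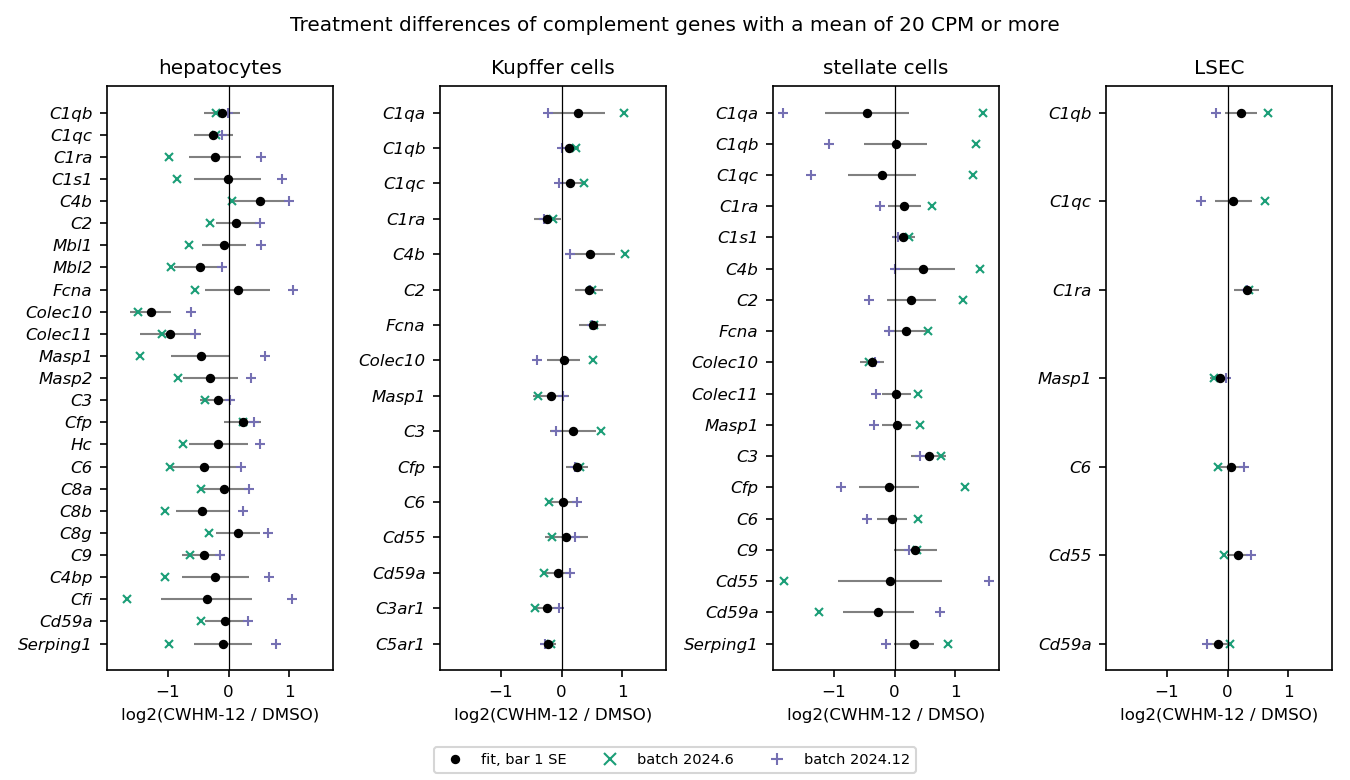
Log2 of CWHM-12 over DMSO for complement genes with a mean of at least 20 CPM in hepatocytes, Kupffer cells, stellate cells and LSEC. Black points with bars are the fit with its SE, and crosses and plus signs are differences of mean log2 CPM within batch 2024.6 and batch 2024.12. In hepatocytes the batches lie on both sides of 0 for most genes, and in Kupffer cells Fcna and C2 have the same sign in both.

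Of 31 other complement genes, a list that includes near copies of members, 0 passed for treatment in any class and 17 reached 100 CPM in a class. Vsig4, a receptor for C3b, was a Kupffer cell transcript with 3183 ± 269 CPM (SD, n = 6). Clu, which binds the forming pore, had 15919 ± 5372 CPM in cholangiocytes, and Vtn, vitronectin, 560.0 ± 256 CPM in hepatocytes. C5ar2 and Susd4 were highest in LSEC with 173 ± 18.6 and 152 ± 73.6 CPM, and Cr2, the receptor CD21, in B cells with 347 ± 101 CPM. Fcnb, Itgam and Itgb2 were highest in neutrophils (475, 1577 and 1507 CPM) and Itgax in type 2 dendritic cells (719 CPM). Along the lobule, Vtn (log2 1.44, SE 0.16), Cfhr2 (log2 1.26, SE 0.18), Cpn2 (log2 1.21, SE 0.19), Clu (log2 1.2, SE 0.19), Crp (log2 0.90, SE 0.15) and C1rl (log2 0.77, SE 0.18) were higher in the periportal range in 6 of 6 libraries, and Susd4, which restrains the C3 convertases, was lower in 6 of 6, at 15.3 ± 11.9 against 84.0 ± 19.0 CPM (log2 -2.75, SE 0.32). Clu and Crp had higher means in cholangiocytes (15919 and 534 CPM) than in hepatocytes (483 and 219 CPM). The part of cholangiocyte transcripts in their periportal differences was not tested.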

How the data were processed

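Single-cell RNA-seq libraries of 6 livers (BD Rhapsody) were analysed from the gene by cell tables of raw counts (UMIs) that the authors deposited. Their genome build, per the submitters' processing notes, was GRCm39, and no source used here names the aligner. Per the labels' protocols, suspensions were set to a fixed mix of nonparenchymal cells and hepatocytes, while the series' design text says that hepatocytes were spun out.

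Barcodes with at least 300 genes, 500 UMIs and at most 30% mitochondrial UMIs were kept, and those with a Scrublet score of at least 0.25 left out as doublets. Clusters (scanpy 1.11.5; 2000 variable genes without complement and mitochondrial genes, 40 components, Leiden resolution 1.5) were named automatically from marker lists by a rule set after the clusters were seen, and 8 of 43 stayed unnamed. Counts were summed per class and library where at least 20 cells were present and tested with edgeR 4.0.16 (quasi-likelihood, TMM, Benjamini-Hochberg over all genes). The treatment fit had a batch term, and class and lobule fits the library as a block. Log2 differences come from these fits, levels are plain CPM, and each SE is the log2 difference over the root of F. Alternatives used DESeq2 1.42.0, limma 3.58.1 voom, other filters and the removal of each library; the fits were tested on simulated counts.

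Members, marker lists and tests were chosen with earlier results of these data known. Treatment results name the 4 members of smallest p with at least 20 CPM per class. Coordinates and promoters come from RefSeq GRCm38.p6 and exon overlaps from GENCODE vM21, and neither was joined to the files by position. Some genes of the wider complement list are not reported here.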

Additional observations from a re-analysis of the deposited data

How the results depend on the processing

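Over 381 recomputed values, 364 kept their direction and side of the threshold or stayed within 1.5 times the count, 13 moved and 4 reversed; the cause was not tested for any of them. For treatment, 0 members were called in each of the 4 classes under each alternative run. Counts over all genes moved from 0 to 3 with DESeq2, 1 with limma voom and 11 with no filter on low counts in hepatocytes, to 3 with DESeq2 and 10 with no filter in Kupffer cells, and with no filter to 27 in stellate cells and 26 in LSEC. Leaving out 1 library at a time gave 0 to 2 genes in hepatocytes, the highest without DMSO 2. With a looser cell filter 24 members differed between Kupffer and stellate cells and 24 between stellate cells and LSEC, when 694 cells were named stellate. Shares of all genes were not recorded under that filter, so these counts are not read as a result about the members. For the difference in response between classes, no filter called 1 member, Colec10 in stellate cells against LSEC, where 0.45% of all genes were called, and the removal of single libraries 0 to 4, with the shares of all genes given beside those calls in the report. In stellate cells C3 turned to -0.19 (log2) with the looser filter, and Colec10 to 0.16 with it and 0.27 with doublets kept, when 379 cells were named stellate. Cd55 in LSEC ranged from -0.059 without DMSO 3 to 0.40 without CWHM-12 1. Along the lobule 11 to 14 members passed with 1 library left out, and 13 without the hepatocyte cluster of very high counts (C6 among them as lower), an alternative chosen after seeing the data. Shares of all genes were not recorded for these lobule fits either. With the replicate number as a block 0 members were called in each class. Libraries of the same number did not deviate together throughout (correlations of -0.0816 to 0.456), so the numbers are not read as pairs. Depth limits the hepatocytes of DMSO 2 most, with 233 cells. Naming limits them too. A cluster of 238 cells, 235 of them from DMSO 2, scored highest for the hepatocyte list but stayed unnamed. Its score of 0.961 was under the 1.2 required.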
